A study of Homo sapiens with 4 samples.

Results

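The 10 genes described here carry out or regulate the synthesis of bile acids and their passage through hepatocytes. They are the bile acid receptor FXR (NR1H4) and the repressor SHP (NR0B2), the enzymes CYP7A1 and CYP8B1, the uptake carriers SLC10A1 and SLCO1B3, and the export pumps ABCB11, ABCB4, ABCC2 and ABCC3. Every probe other than a control that the array design assigns to one of these gene names was taken, which gave 11 probes in 21 spots, out of 42405 probes in 58717 spots. ABCC3 has 2 probes and each of the other genes has 1. Total RNA came from Hep3B, a human hepatocellular carcinoma cell line, and 4 Agilent arrays were available, each for a single culture. All cultures had been transfected with a plasmid that expresses a short hairpin RNA and then selected with 1 ug/ml puromycin. The control culture carried the mock hairpin shR-MOCK, and 3 further cultures each carried a hairpin against UNC50, named shR-467, shR-554 or shR-749. UNC50 encodes a protein of the Golgi membrane. The comparison asked how this set of liver genes stood after UNC50 knockdown.

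Hepatocytes make bile acids from cholesterol. CYP7A1 carries out the rate-limiting step of the classical pathway, and CYP8B1 adds the hydroxyl group that sets cholic acid apart from chenodeoxycholic acid. Bile salts that return to the liver are taken up from blood by SLC10A1 (NTCP, also the entry receptor of hepatitis B virus) and by the organic anion carrier SLCO1B3 (OATP1B3). They leave the cell into bile through ABCB11 (BSEP), beside the phospholipid floppase ABCB4 (MDR3) and the conjugate pump ABCC2 (MRP2), or back into blood through ABCC3 (MRP3). Bile acids bind FXR, which induces SHP and the exporters into bile (ABCB11, ABCB4 and ABCC2), and SHP in turn represses CYP7A1.

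Each spot of these arrays holds a DNA probe of 60 bases. The probes of NR1H4, SLCO1B3 and ABCC2 and the ABCC3 probe annotated to transcript variant 2 are given below. They read the receptor, the carrier that separated the hairpins, an export pump and part of the divergence between the ABCC3 probes. The other ABCC3 probe, on which that divergence also rests, is not shown. The sequences were copied from the scanner files and are written as the array design gives them.
NR1H4 (chr12:100957191-100957250, hg19, plus strand): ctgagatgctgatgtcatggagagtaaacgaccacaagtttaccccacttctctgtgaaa
SLCO1B3 (chr12:21036476-21036535, hg19, plus strand): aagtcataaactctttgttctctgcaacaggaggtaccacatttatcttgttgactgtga
ABCC2 (chr10:101611322-101611381, hg19, plus strand): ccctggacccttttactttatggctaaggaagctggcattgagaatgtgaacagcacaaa
ABCC3, variant 2 (chr17:48745220-48745279, hg19, plus strand): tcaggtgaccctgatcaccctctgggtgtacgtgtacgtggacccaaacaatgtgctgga

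Levels below are log2 signals relative to the 75th percentile of the same array, averaged over the spots of a probe, so that a level of 0 equals that percentile. Levels of different probes cannot be set against each other. Sums over marker probes below therefore tell only what was detected and do not compare amounts between cell types. Such a sum can rest on its brightest probes, as on EPCAM and KRT19 for cholangiocytes. Where 3 values follow a gene with no further mark, they belong to shR-467, then shR-554, then shR-749. Paired spots of a probe read the same RNA on an array, with a median gap of 0.075 to 0.093 per array on the log2 scale. Spots that are separate or overlap between arrays therefore reflect noise of the array and not the spread between cultures. The targeted UNC50 was left at 24.0% (shR-467), 13.7% (shR-554) and then 18.7% (shR-749), relative to the mock array. The share of spots well above background lay between 67.6% and 73.6% per array, and no spot was saturated. All arrays were on 1 slide and read in 1 scan. All 8 hepatocyte markers looked at (ALB, AFP, TTR, APOA1, APOB, SERPINA1, TF and HNF4A) were well above background on every array. The cholangiocyte markers KRT7, KRT19, SOX9, CFTR and EPCAM were well above background on every array as well, with a summed signal of 60.2 to 76.0 times the 75th percentile. For fibroblasts that sum was 0.0208 to 0.115, with COL1A1 and ACTA2 never well above background and 2 of 5 markers kept, and PDGFRB, COL1A2 and DCN not well above it on every array. Of the leukocyte markers, CD68 and CD14 were bright, with mock signals of 3309 and 1750, while PTPRC, CD3E and MS4A1 gave 81.5, 45.9 and 24.7. It was 0.225 to 0.351 for endothelial cells, with PECAM1, VWF and CDH5 kept and KDR never well above background. The hepatocyte markers averaged log2 differences of 0.60 (shR-467), 0.33 (shR-554) and then 0.51 (shR-749), and their summed signal, in multiples of the 75th percentile, was 378 on the mock array and 462 to 524 on the others. Of these markers, TTR, APOA1 and AFP were at least 1.5-fold higher on average, as were 2.34% of all genes well above background on all 4 arrays. The cholangiocyte markers averaged log2 differences of -0.23 (shR-467), -0.38 (shR-554) and then -0.17 (shR-749), but did not move together. KRT7 was above the mock array with every hairpin (0.41, 0.34 and 0.07), and SOX9 and CFTR were below it with every hairpin. KRT19 and EPCAM had hairpins on either side of it. The summed signal of these markers was 75.3 on the mock array and 67.8 (shR-467), 60.2 (shR-554) and 76.0 (shR-749) on the others. The part of these shifts in the results below was not tested. Fewer cells with a transcript and less transcript per cell cannot be told apart in such bulk RNA.

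Of the 11 probes, 9 (for 8 of the 10 genes) were bright enough on the mock array, or else with all 3 hairpins, to be kept and entered the fit across 30274 probes. CYP8B1 and ABCB11 did not. The mean of the 3 differences from the mock array had a median of 0.05 over the 9 probes, with a range of -0.25 to 0.82, while the median over all 30274 probes was -0.03. Only the ABCC3 variant 2 probe was at least 1.5-fold higher on average, 1 of 9, where 2.25% of all probes passed that rule. None of the 9 was at least 1.5-fold lower on average, against 7.35% of all probes. No member probe reached 1.5-fold the same way with every hairpin, a rule that 0.552% of all probes passed upwards and 1.23% downwards. None of the 9 had an adjusted p under 0.05 in limma, and 0 had an unadjusted p under 0.05. Over all probes 0 passed with adjustment and 451, or 1.49%, without. The methods' t-test also called 0 of the 9 with or without adjustment. Over all 30274 probes it called 813 without adjustment and 0 with it. With 1 mock array against 3 hairpins an exact permutation test cannot go below p = 0.25, and the spread between control cultures is not known.

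None of the 9 was below the mock array with every hairpin, which held for 20.6% of all probes, and 7 had hairpins on either side of it, as did 61.7% of all probes. The gap between the highest and the lowest hairpin had a median of 0.81 on the log2 scale over the 9 probes, with a range of 0.30 to 1.53, beside a median of 0.47 over all probes. With shR-467, SLC10A1 and the ABCC3 variant 2 probe were at least 1.5-fold higher, and no member probe was as much lower. Of all probes, 6.91% were higher and 6.52% lower by this rule. With shR-554, SLCO1B3 was higher and the ABCC3 variant 1 probe lower (4.36% and 15.2% of all probes). With shR-749, CYP7A1 and the ABCC3 variant 2 probe were higher and SLCO1B3 lower (5.36% and 10.1% of all probes). The lowest of the 4 levels was on the shR-554 array for 6 of the 9 probes, which held for 31.7% of all probes. It was on the mock array for 2 (17.7% of all probes), on the shR-749 array for SLCO1B3 alone (29% of all probes) and on the shR-467 array for none (21.6% of all probes). With quantile normalization it was on the shR-554 array for 4 of the 9, as CYP7A1 was then lowest with shR-467 and SLC10A1 on the mock array, so that 3 of the 9 probes were above the mock array with every hairpin.

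**Figure D1:**
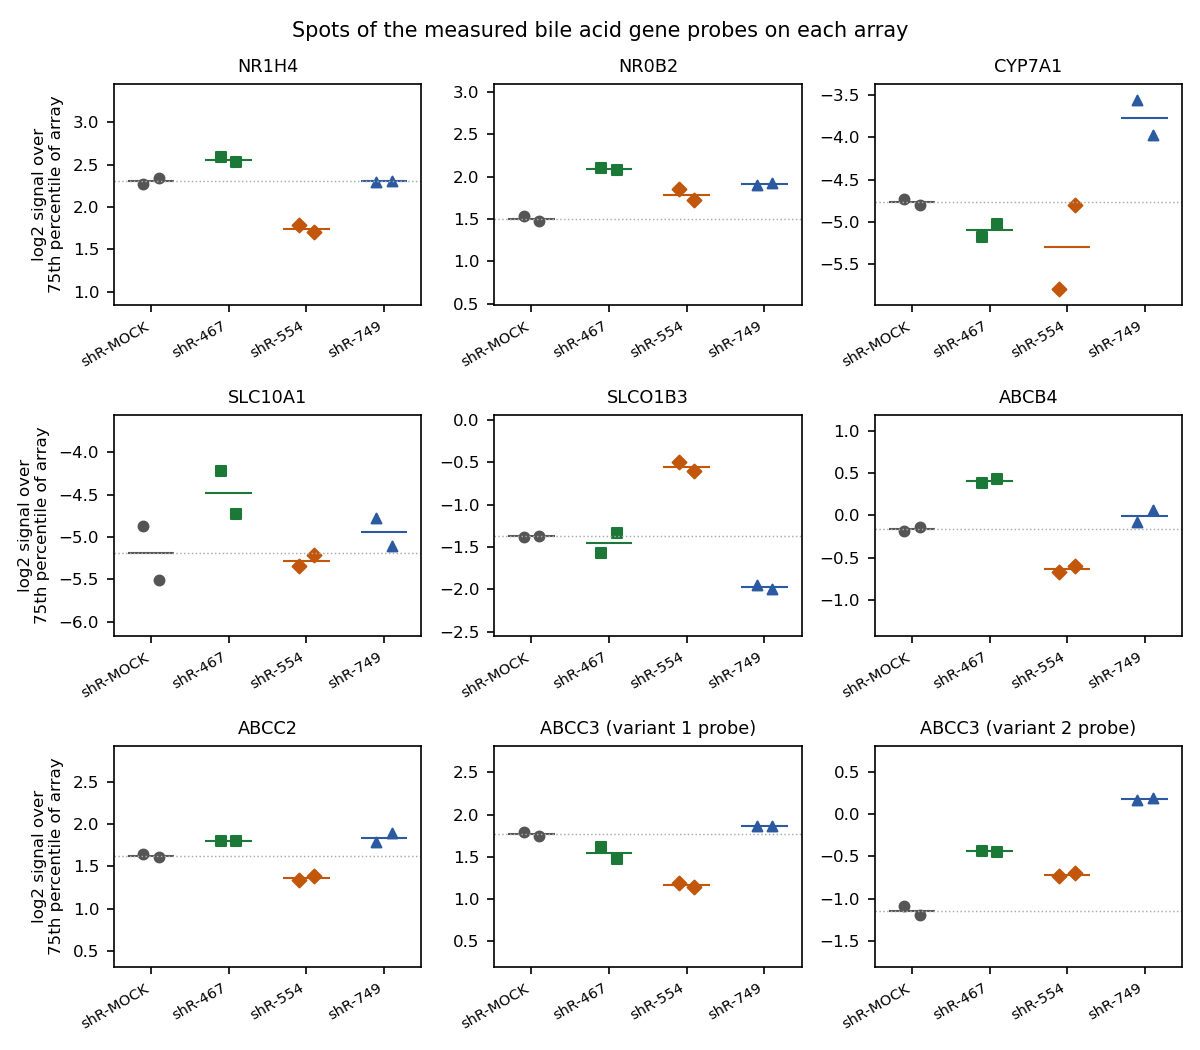
Level of each spot of the 9 measured member probes on each array (log2 signal over the 75th percentile of the array), with a bar at the mean of the spots and a dotted line at the mock mean. All panels span the same height in log2 units, and the spots of NR0B2 and of the ABCC3 variant 2 probe lie above the mock spots with all 3 hairpins.

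NR1H4, the receptor, stood at a level of 2.31 on the mock array, against 2.56 (shR-467), 1.75 (shR-554) and then 2.31 (shR-749). The shR-749 and mock spots overlapped, shR-467 was above both and shR-554 below both. NR1H4 amounted to 119%, 67.8% and 99.9% of the mock value, and the mean log2 difference was -0.10 ± 0.42 (SD, n = 3 hairpins). Its adjusted p in limma was 0.9998. Without shR-554 the mean was 0.13, so that the sign of the average rested on this hairpin.

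NR0B2, which FXR induces, was measured by a probe at chromosome 1, 27238183 to 27238242 (hg19, minus strand). Its level was 1.51 on the mock array, against 2.09 (shR-467), 1.79 (shR-554) and then 1.91 (shR-749). Neither mock spot reached any spot of the other arrays, and the spots of all 4 arrays were separate from each other. The log2 differences were 0.58, 0.28 and 0.41, or 149.8%, 122% and 132% of the mock level, with a mean of 0.42 ± 0.15 (SD, n = 3). This was the smallest gap between hairpins among the 9 probes. Of all probes, 5.02% had a mean difference as high or higher, and 17.7% were above the mock array with every hairpin, as were 2 of the 9 member probes, NR0B2 and ABCC3 variant 2. NR0B2 remained below 1.5-fold on average, and its adjusted p in limma was 0.9998. NR1H4 and NR0B2 did not share an order: the shR-467 array was highest for each, while shR-554 was the lowest array for NR1H4 and lay above the mock array for NR0B2.

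**Figure D2:**
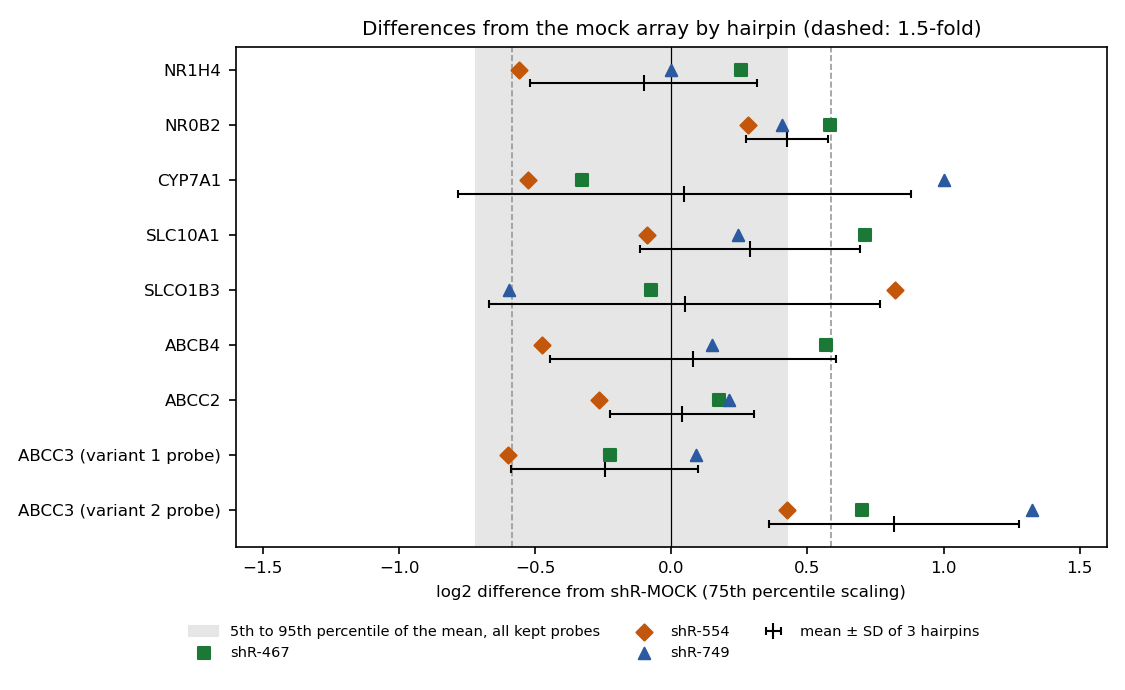
Log2 difference from the mock array for each hairpin (coloured points) and their mean ± SD (black, n = 3 hairpins) for the 9 measured member probes, with the 5th to 95th percentile of the mean over all 30274 probes in grey and 1.5-fold dashed. The means of NR1H4, CYP7A1, SLCO1B3, ABCB4 and ABCC2 lie within 0.11 of 0 although their hairpins lie on either side of it, and the ABCC3 variant 2 probe lies to the right with every hairpin.

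CYP7A1, at chromosome 8, 59403414 to 59403473 (minus strand), was dim. Its 2 spots gave signals of 42.1 and 40.1 on the mock array, against 27.1 and 30.1 for shR-467, 25.1 and 49.9 for shR-554, and 95.7 and 71.9 for shR-749. On the shR-554 array the lower of these spots was not well above background. Against the mock array the scaled log2 differences were -0.33, -0.53 and 1.00, so that CYP7A1 stood at 79.6%, 69.4% and 200.1% of the mock level. Both shR-749 spots were above all others after scaling, whereas the shR-554 spots overlapped those of shR-467 and of the mock array. The mean difference was 0.05 ± 0.83 (SD, n = 3), and without shR-749 it was -0.43. The gap between hairpins, 1.53, was the widest of the 9 probes, and 7.20% of all probes had one as wide.
The shR-554 spots of CYP7A1 were 0.99 apart on the log2 scale, nearly as far as the shift with shR-749.

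CYP8B1, the sterol 12-alpha-hydroxylase, stayed within background throughout. Its single spot, at chromosome 3, 42913685 to 42913744 (minus strand), gave 4.83 on the mock array, against 5.38 (shR-467), 6.90 (shR-554) and then 5.61 (shR-749). These were 0.21 to 0.24 of the detection limit, taken as the dimmest signal counted as well above background on that array, and no fold is given.

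**Figure D3:**
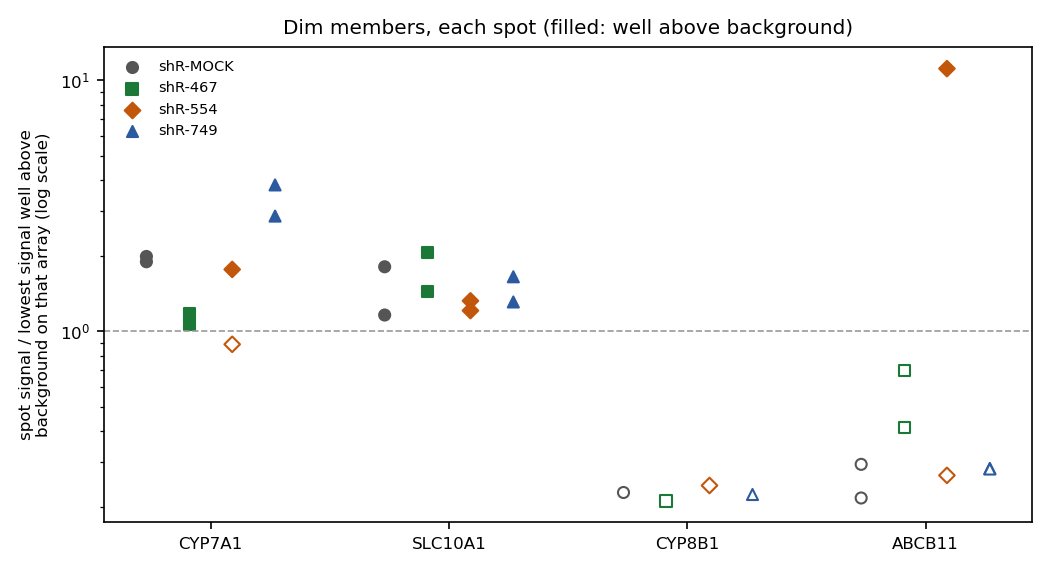
Signal of each spot of 4 dim members, divided by the dimmest signal still well above background there (log axis, dashed line at 1), with filled symbols for spots well above background. CYP8B1 lies below the line on all arrays, CYP7A1 and SLC10A1 lie close to it, and ABCB11 has a single filled spot at 11.1 times the limit on the shR-554 array.

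Among the uptake carriers, SLC10A1 was also close to the limit of detection, with 1.26 to 1.72 times the lowest signal well above background. Its probe lies at chromosome 14, 70242882 to 70242941 (minus strand). The level was -5.19 on the mock array, against -4.48 (shR-467), -5.28 (shR-554) and then -4.94 (shR-749). The mock spots were 0.64 apart, and they overlapped those of shR-554 and of shR-749. The log2 differences of 0.71, -0.09 and 0.25 gave a mean of 0.29 ± 0.40 (SD, n = 3). With shR-467 the difference hardly exceeded the gap between the mock spots, and without this hairpin the mean was 0.08.

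SLCO1B3 was well above background everywhere and separated the hairpins. Its level was -1.37 on the mock array, against -1.45 (shR-467), -0.55 (shR-554) and then -1.97 (shR-749). The spots of the mock and shR-467 arrays overlapped. The shR-554 spots lay above and the shR-749 spots below all others. SLCO1B3 amounted to 94.9%, 177% and 66.1% of the mock value, and the mean of 0.05 ± 0.72 (SD, n = 3) hid this opposition. Leaving out shR-554 gave a mean of -0.34 and leaving out shR-749 gave 0.37. A gap between hairpins as wide as 1.42 was found for 8.53% of all probes.
Its neighbour and paralog SLCO1B1 (OATP1B1), at chromosome 12, 21392460 to 21392519, was looked at beside it after the values were seen. The log2 differences of SLCO1B1 were -0.52, 0.81 and -1.20, and its lowest signal was 1.14 times the lowest well above background. Both carriers had their highest level with shR-554 and their lowest with shR-749. Whether the probes take up signal from the other gene was not tested.

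Of the canalicular exporters, ABCB11 was not well above background on the mock, shR-467 and shR-749 arrays. Its probe lies at chromosome 2, 169779561 to 169779620 (minus strand). The paired spots gave 6.25 and 4.59 on the mock array, 17.8 and 10.5 with shR-467, and 7.10 and 7.06 with shR-749. With shR-554 a spot of 7.54 stood beside a spot of 315, which alone was well above background. The spots of that array were 41.8-fold apart, and of the 7320 probes with 2 unmarked spots on it 11 had a gap as wide. The scanner software had not marked the bright spot as an outlier. No fold is given for ABCB11.

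ABCB4, at chromosome 7, 87031383 to 87031442 (minus strand), was well above background on all arrays. Its level was -0.16 on the mock array, against 0.41 (shR-467), -0.63 (shR-554) and then -0.01 (shR-749). The spots of no arrays overlapped. ABCB4 stood at 148%, 71.9% and 111% of the mock level, and the mean log2 difference was 0.08 ± 0.53 (SD, n = 3), with a change of sign to -0.16 without shR-467. ABCC2 varied less, with a level of 1.63 on the mock array, against 1.80 (shR-467), 1.36 (shR-554) and then 1.84 (shR-749). The shR-467 and shR-749 spots overlapped above the mock array, and the shR-554 spots were below it. ABCC2 stood at 113%, 83.2% and 116% of the mock level. Its mean log2 difference was 0.04 ± 0.26 (SD, n = 3), and 49.2% of all probes had a gap between hairpins as wide.

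ABCC3, the basolateral pump, was read by 2 probes that went apart. The probe annotated to transcript variant 1 lies at chromosome 17, 48768701 to 48768760, and the one annotated to variant 2 lies 23421 bases before it on the same strand. The variant 1 probe had a level of 1.77 on the mock array, against 1.54 (shR-467), 1.17 (shR-554) and then 1.86 (shR-749). Its mean log2 difference was -0.25 ± 0.34 (SD, n = 3), and without shR-554 it was -0.07. With shR-554 it was at least 1.5-fold lower, by a log2 difference of -0.60, and with shR-749 it was above the mock array.
The variant 2 probe had a level of -1.14 on the mock array, against -0.44 (shR-467), -0.72 (shR-554) and then 0.18 (shR-749). The spots of the 4 arrays were separate, and the mock array was the lowest. It stood at 162%, 134% and 250% of the mock level, with a mean log2 difference of 0.82 ± 0.46 (SD, n = 3), a limma SE of 0.36 and an adjusted p in limma of 0.9998. Of all probes, 0.885% had a mean as high or higher. Without shR-749 the mean was 0.56, which is under 1.5-fold, and no member probe then passed.
The difference between the probes within an array does not depend on the factor by which an array is scaled. Relative to the mock array, the variant 2 probe gained on the variant 1 probe by 0.93, 1.03 and 1.23 on the log2 scale, a mean of 1.06 ± 0.16 (SD, n = 3 hairpins). This comparison was chosen after the values were seen. Of 6180 pairs of kept probes of the same gene, 1.7% went at least 1.5-fold apart the same way with every hairpin. Of 5467 pairs of probes of the same gene that were well above background on all arrays, 1.02% did. Both ABCC3 probes were at least 23.9 times the lowest signal well above background. The names of the variants are those of the array design and stand here for the probes only. Whether the variant 2 probe also binds variant 1 was not tested. A change of this probe is therefore not shown to be a change of that transcript variant.
Over the 4 arrays, the genes whose centred levels lay closest to the variant 2 probe were COX19, CTSF and ENST00000383025, at Euclidean distances of 0.06, 0.13 and 0.19 on the log2 scale. Of 21486 genes searched, 14 lay within 0.25.

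Other genes of the pathway were read from 5 lists, each gene by its brightest kept probe. Of 64 genes, 63 had a probe, 57 were kept and 55 were well above background on all 4 arrays. Of these 55, 5 were at least 1.5-fold higher on average and 2 lower, where 2.34% and 2.92% of all 21487 such genes were. Among the 57 there were 4 lower (2.28% of all 25148 kept genes were higher and 7.69% lower), but CYP46A1 and NR1I2, the added genes, were kept because they cleared background on the mock array, so that the filter bears on their calls. With every hairpin 2 were higher and 1 lower, against 0.537% and 1.23% of all genes. In limma 0 of the 57 had an adjusted p under 0.05 and 5 an unadjusted one, as had 1.54% of all kept genes. The lists overlap each other and some of their genes share a locus.
Of the 11 synthesis enzymes well above background on all 4 arrays, 1 was lower on average and none was higher. It was AKR1C4, a hydroxysteroid dehydrogenase that acts on bile acid intermediates, with log2 differences of -0.63, -0.78 and -0.92, and a second AKR1C4 probe gave -0.48, -0.59 and -0.77. AKR1C4 has close paralogs with which its probes may share signal. CYP46A1 cleared background for the mock culture alone and is named after its values were seen. The bright CYP27A1, which opens the alternative pathway, gave 0.69, -0.19 and 0.52, and HSD17B4, of peroxisomal side chain shortening, gave 0.02, -0.28 and -0.47.
Of 5 conjugation genes kept, SULT2A1, the bile acid sulfotransferase, was higher on average, by 1.52, 0.38 and 1.77. The glucuronosyltransferases UGT2B7 (0.16, -0.63 and -0.57) and UGT2B4 (0.57, 0.10 and -0.02) stayed under 1.5-fold on average.
Of 16 further transporters kept, SLC22A7, an organic anion carrier, was higher on average with 0.27, 1.69 and 0.32, which rested on shR-554, while its second probe gave 0.48, -0.68 and 0.66. FABP1, a cytosolic carrier of fatty acids and bile acids, gave 0.73, 0.25 and -0.42, and ABCC6 gave 0.29, -0.10 and 0.19.
Of 15 regulators well above background on all 4 arrays, 1 was lower on average. It was VDR, which binds lithocholic acid, with -1.23, -0.63 and -0.04. NR1I2, named after its values were seen, was well above background on the mock and shR-467 arrays only. The FXR partner RXRA gave 0.52, 0.14 and 0.50.
Of 14 further FXR target genes, 3 were higher on average and none lower. They were the fibrinogen chain genes FGA (0.68, 1.48 and 2.39), FGB (0.65, 1.94 and 2.67) and FGG (0.52, 1.09 and 2.46), neighbours on chromosome 4 that encode a clotting protein. The other 2 FGA probes gave means of 2.16 and 1.55. None of the bile acid carriers, enzymes or hormones on this list passed the same rule. APOC2, an activator of lipoprotein lipase, gave 0.60, -0.03 and 0.42.

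**Figure D4:**
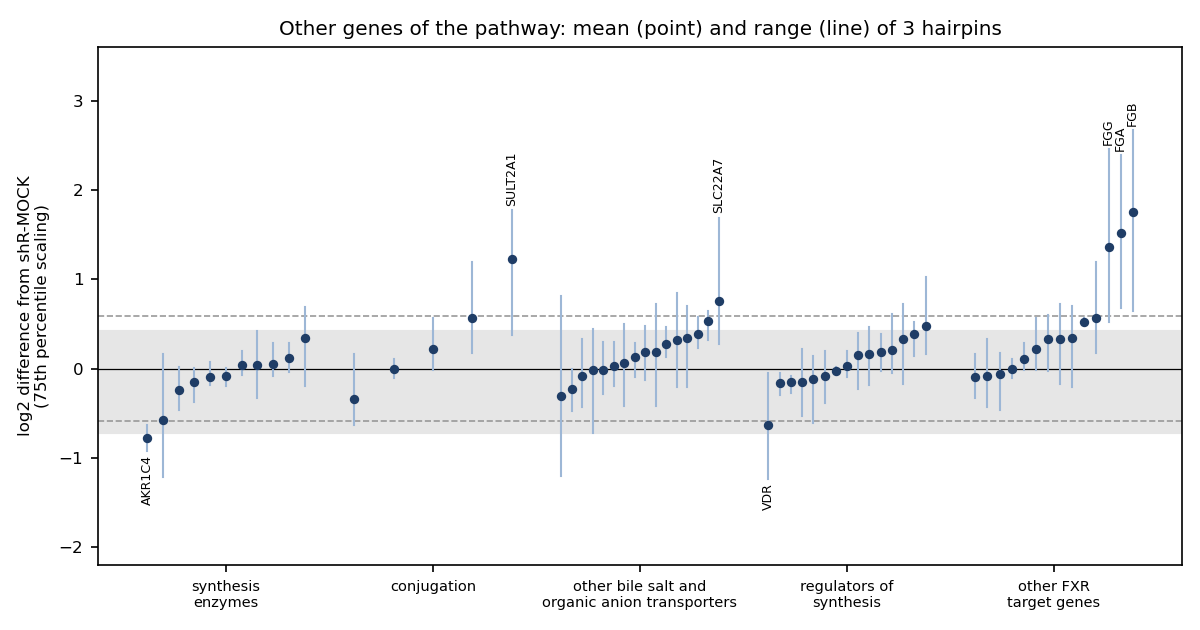
Mean (points) and range (lines) of the log2 differences of the 3 hairpins from the mock array for the listed pathway genes well above background on all 4 arrays, with the 5th to 95th percentile of the mean over all probes in grey and 1.5-fold dashed. Named genes passed 1.5-fold on average, and the 3 fibrinogen genes stand highest.

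RefSeq promoters of GRCh38.p14, from 250 bases before to 50 after the start, were on hand for 5 members (ABCB11, ABCC2, SLCO1B3, NR1H4 and SLC10A1). None held, on either strand, the exact letters CAAGGTCA (the NR5A2 site), which 1.28% of 35116 promoters held. None held an exact FXR inverted repeat or DR1 motif either, and these were present in 0% and 0.0228% of all promoters. Because no promoter at all held the exact FXR repeat, its absence here says nothing about the members. The other motifs are so rare over all promoters that none was likely in 5 promoters beforehand. Their absence says nothing about the members either. Sites that depart from these exact letters were not searched for.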

How the data were processed

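The authors deposited the output of Agilent Feature Extraction 10.7.1.1 for each array, which gives the intensity of each spot before and after its own background subtraction and detrending. They also deposited a table of log2 values per probe, whose 4 columns share 1 distribution, with the normalization not given in the sources used here. Probe positions are those of the files on hg19.
From the processed signals, log2 values were taken relative to the array's 75th percentile, controls aside. Spots marked as outliers were left out and the others of a probe averaged. A probe counted as well above background when at least 50% of its unmarked spots were, and was kept when this held for the mock culture or for all 3 hairpins. The hairpins were treated as 3 replicates of knockdown, so that the spread between them includes effects of a single hairpin. Limma 3.58.1 in R 4.3.3 (lmFit, then eBayes with trend) lends their spread to the single mock array, and p-values were adjusted by Benjamini-Hochberg over 30274 probes. Changes were counted at 1.5-fold, after the study's methods. Nothing says that cultures were replicated. The p-values rest on the spread between the 3 hairpins, which limma draws towards that of other probes. The mock array adds nothing to that spread.
The text names every probe of the members, UNC50, the listed genes past 1.5-fold on average that cleared background on all 4 arrays, the cell type markers, the 2 brightest genes of each list and the 3 closest profiles. An item that this rule names is not reported here. Members and lists were chosen with earlier results of these data known. List genes were matched by symbol or older name, and all 10 members matched RefSeq symbols of GRCh38.p14. Alternatives were median scaling, quantile normalization, normexp (offset 50), the authors' log2 values, raised low signals, other filters, marked spots kept, other probe choices, 2-fold, each hairpin left out, a fit with no trend and the methods' t-test. The steps were tested on simulated data. Python 3.11.15, numpy 2.4.6, pandas 2.3.3, scipy 1.17.1 and matplotlib 3.10.9 were used.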

Additional observations from a re-analysis of the deposited data

Results flagged for a closer look

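A single ABCB11 spot on the shR-554 array gave a signal of 315, well above background, in a probe left out of the main comparisons. Its partner spot gave 7.54 and the mock spots 6.25 and 4.59. The probe entered only the alternative with no filter on dim probes. The bright spot is the subject here. It was listed because it belongs to data that the main comparisons left out. Its part in any change of ABCB11 was not tested.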

How the results depend on the processing

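Of 212 alternative values, 199 kept their sign and side of the threshold or moved by less than the spread between hairpins or by no more than 1.5 times. Many of the 199 could not differ, because a change of test or of filter leaves the mean of a probe as it was. The count is therefore no measure of how robust the means are. The count of member probes at least 1.5-fold from mock on average (1) became 2 with no filter on dim probes, through ABCB11 and its discordant spot, 0 at 2-fold, and 0 to 1 with each hairpin left out. The count with every hairpin (0) became 0 to 1 with each hairpin left out, where fewer hairpins must pass. The 9 pathway genes (5 higher, 4 lower) became 4 at 2-fold (0 lower) and 6 with normexp (1 lower). With only genes well above background on all 4 arrays, or with low signals raised, 2 were lower. With each hairpin left out there were 11 to 13, of which 9 were higher without shR-467, 6 without shR-554 and 8 without shR-749. Means changed sign for NR1H4 without shR-554 (0.13), CYP7A1 without shR-749 (-0.43), SLCO1B3 without shR-554 (-0.34), ABCB4 without shR-467 (-0.16), and ABCC2 without shR-467 (-0.027) or shR-749 (-0.045). With each hairpin left out, means ranged from -0.28 to 0.13 for NR1H4, -0.43 to 0.34 for CYP7A1, -0.34 to 0.37 for SLCO1B3, -0.16 to 0.36 for ABCB4, -0.045 to 0.19 for ABCC2, 0.08 to 0.48 for SLC10A1, -0.41 to -0.07 for ABCC3 variant 1 and 0.56 to 1.01 for ABCC3 variant 2. Averaging the ABCC3 probes gave 0.29 in place of -0.25 for variant 1, and taking the brighter gave -0.25 in place of 0.82 for variant 2. Under the other scalings and background correction every member mean kept its sign, NR0B2 lay between 0.42 and 0.45, and the difference between the ABCC3 probes, an alternative added after seeing the data, was at least 0.98. Normexp gave limma 4 calls over all probes and leaving out shR-554 gave 1, none of them a member. No paired analysis was possible because the single mock array gives no pairs, and a block for slide or scan could not be fitted on 1 slide. CYP7A1 and SLC10A1 lie near background, which limits their values.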
